A study of Mus musculus with 4 samples.

Results

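Iron handling in liver CD24+ cells was followed through 10 genes for iron uptake, storage, export and their hormonal control: Hamp, Tfr2, Hfe, Trf, Cp, Slc40a1, Slc11a1, Tfrc, Fth1 and Ftl1. They were chosen by gene symbol, and all 10 were found among the 21878 gene rows of each table and passed the filter on low counts. RNA was sequenced in bulk from C57BL/6 mouse liver cells that had been collected on magnetic columns (MACS) through the surface protein CD24, and the labels call these cells hepatocytes and liver progenitor cells. Mice of either group were 8 weeks old at injection, into the peritoneum. CCL4 mice were given the hepatotoxin carbon tetrachloride in olive oil, at 2 ml/kg, with 2 injections a week over 6 weeks. HACY mice had 3 injections a week over 6 weeks of a mixture of Y-27632, which inhibits protein kinases, A-83-01, which inhibits type I receptors of TGF-beta, and CHIR99021, which inhibits glycogen synthase kinase 3. The age label of all mice reads 6 to 8 weeks, and it is not clear whether the HACY mice also received carbon tetrachloride. Each group had 2 libraries, with no untreated group, so "higher" and "lower" mean HACY relative to CCL4. It is not stated if the replicates are different animals. The p-values therefore measure only how far these samples spread, and that spread may be technical.

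The hormone that sets body iron is hepcidin, the product of Hamp in hepatocytes. Hepcidin binds ferroportin (Slc40a1), the cellular iron exporter, and has it degraded, which holds iron inside macrophages and hepatocytes. Liver macrophages take up old red cells, break down their haem and return the iron to plasma through ferroportin, where ceruloplasmin (Cp) oxidises it and transferrin (Trf) carries it. Cells take up transferrin through the transferrin receptor (Tfrc) and store iron in ferritin, a shell of heavy (Fth1) and light (Ftl1) chains.

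Part of this system is controlled on the mRNA. Iron regulatory proteins bind a hairpin called the iron responsive element when cells are short of iron. On a 5′ UTR the bound protein blocks translation, and on the 3′ UTR of Tfrc it protects the mRNA from decay. The longest coding transcript of each GENCODE gene (mouse GRCm38, sense strand) was searched for a C followed by 5 bases, the loop CAGTGN and 5 bases that pair with the first 5 (G with T allowed). This hairpin was found in 4 of the 10 genes, against 271 of 21842 genes (1.24%). The pattern was written from the known element of iron genes, so these shares describe the genes and are no enrichment found here. Tfrc held 4 such hairpins, and 4 genes of the annotation (0.0183%) held at least 2. They are shown because they separate, among the 10 genes, those with a match from those without, and capitals mark the loop letters. A gene without a match to this pattern may still carry the element. The Fth1 hairpin lies at chr19:9982732-9982760 (plus strand), that of Ftl1 at chr7:45459779-45459807 (minus strand) and that of Slc40a1 at chr1:45925465-45925493 (minus strand). The Tfrc hairpins a to d lie on the plus strand at chr16:32631219-32631247, chr16:32631598-32631626, chr16:32631663-32631691 and chr16:32631710-32631738.
Fth1 5′ UTR: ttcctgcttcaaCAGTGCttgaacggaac
Ftl1 5′ UTR: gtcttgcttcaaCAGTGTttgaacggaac
Slc40a1 5′ UTR: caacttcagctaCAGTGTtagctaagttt
Tfrc 3′ UTR hairpin a: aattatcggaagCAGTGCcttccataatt
Tfrc 3′ UTR hairpin b: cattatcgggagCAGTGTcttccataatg
Tfrc 3′ UTR hairpin c: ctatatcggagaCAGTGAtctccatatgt
Tfrc 3′ UTR hairpin d: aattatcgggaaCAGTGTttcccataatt

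Hamp is controlled at its promoter instead, by bone morphogenetic protein (BMP) signals through SMAD proteins and by interleukin 6 through STAT3. Mice carry a second copy, Hamp2, next to it on chromosome 7. Part of each promoter is shown because the 2 genes are told apart below. The stretches come from RefSeq (GRCm38.p6, minus strand), chr7:30944100-30944159 for Hamp and chr7:30924249-30924308 for Hamp2. Capitals mark the letters GGCGCC, the core of the BMP-responsive element, and TTCNNNGAA, the STAT letters, searched on both strands.
Hamp promoter: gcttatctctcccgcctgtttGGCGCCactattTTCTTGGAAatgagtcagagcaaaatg
Hamp2 promoter: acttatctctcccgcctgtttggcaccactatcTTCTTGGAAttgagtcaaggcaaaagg
The stretches differed at 7 of 60 bases (88.3% identity). One of the differences, G25A, counted from 1 at the first printed base with the Hamp base first, fell inside the GGCGCC letters, so these were found in Hamp and not in Hamp2. GGCGCC occurred in the promoters of 10.85% of 27025 genes, TTCNNNGAA in 8.13% and both in 0.44%. Promoters of 8 of the 10 iron genes were in the RefSeq table (missing: Trf and Slc40a1), and among them Hamp and Tfrc held GGCGCC and Hamp held TTCNNNGAA. A match describes the letters and is not evidence of binding.

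Hamp, Slc11a1, Cp and Slc40a1 rose in HACY libraries, and none of the 10 genes was called lower in the main fit. By edgeR's quasi-likelihood test, at an adjusted p below 0.05 (Benjamini-Hochberg, 13428 genes), 4 of 10 iron genes were called higher and 0 lower, against 8.19% of all genes called higher and 3.54% called lower. DESeq2 called 5 higher and 0 lower, against 1350 higher and 730 lower of all 13428 genes. At an unadjusted edgeR p under 0.05, 6 were higher and 0 lower. The share of all genes at that unadjusted p was not taken, here or for the lists below, so such counts have no background. The 2 HACY libraries lay on one side of the 2 CCL4 libraries for 8 of the 10 genes, against 60.8% of all genes. Over all genes, 1100 were called higher and 476 lower, and scaling by library size alone turned this into 856 and 1355. The median log2 fold change was 0.53 over the 10 genes and -0.01 over all genes tested. The 4 calls held under each of the 14 other settings run, which changed the scaling, the test or the filter, added a replicate block, or left out 1 library.

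**Figure D1:**
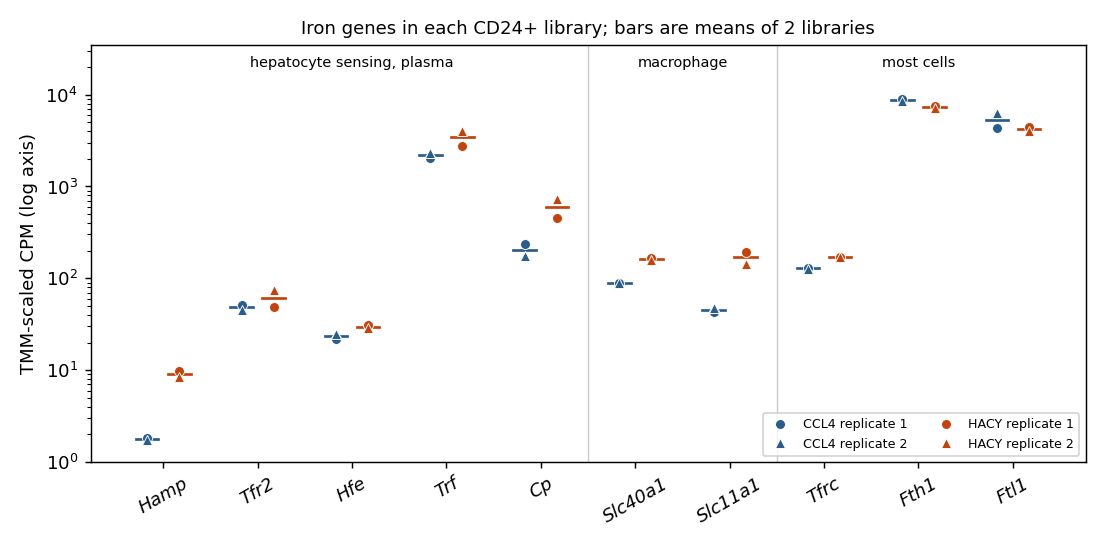
Level of each iron gene in each library, in CPM (log axis), for CCL4 (blue) and HACY (orange); circles are replicate 1, triangles replicate 2 and bars the mean of 2 libraries. Hamp, Slc11a1, Cp and Slc40a1 show HACY libraries clearly above CCL4 libraries, while Tfr2 and Ftl1 overlap.

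**Figure D2:**
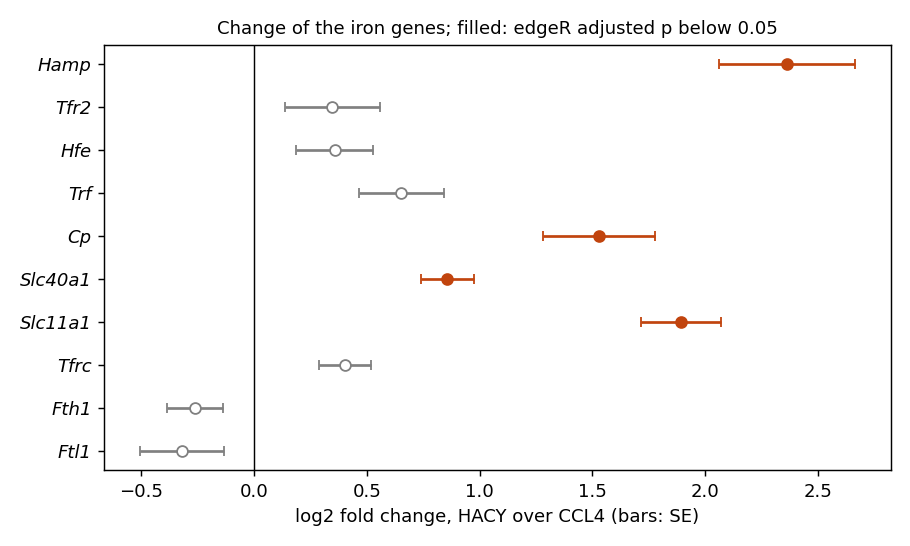
Log2 fold change of each iron gene, HACY over CCL4, with bars of 1 standard error (SE) and filled points where the edgeR adjusted p was below 0.05. The 4 filled points run from 0.86 for Slc40a1 to 2.36 for Hamp, and the 2 ferritin chains are the points below 0.

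Deposited FPKM, which allow for transcript length, placed the 10 genes on very different levels. Fth1 was the most abundant gene of both CCL4 libraries (9606 and 9117 FPKM) and second to albumin in both HACY libraries (7736 and 6995 FPKM). Ftl1 followed at rank 2 in CCL4 (5350 and 7331 FPKM) and rank 3 in HACY (5072 and 4493 FPKM). Trf stood at rank 51 in both CCL4 libraries (709 and 784 FPKM) and at ranks 27 and 20 in HACY (925 and 1301 FPKM).

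The other 7 genes lay between 5.66 and 55.9 FPKM. In CCL4 their order was Tfrc (33.0 and 34.3 FPKM), Slc40a1 (28.0 and 29.8), Cp (19.3 and 16.0), Slc11a1 (13.1 and 15.01), Tfr2 (9.91 and 8.98), Hamp (7.03 and 6.09) and Hfe (5.66 and 6.38). Of these neighbours, Hamp and Hfe overlapped. In HACY, Slc40a1 (50.8 and 45.8 FPKM), Slc11a1 (55.4 and 39.6), Cp (35.8 and 55.9), Tfrc (41.8 and 39.1) and Hamp (39.4 and 31.3) overlapped, each with its neighbour in that order. Below them came Tfr2 (9.13 and 13.3 FPKM) and Hfe (7.45 and 6.49), whose libraries did not overlap.

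Among the genes of hepatocyte iron sensing, Hamp (chr7:30942368-30944032, minus strand) rose most. In CPM, which are counts scaled to the library total with TMM factors, it stood at 9.78 and 8.51 in HACY replicates 1 and 2 and at 1.82 and 1.73 in CCL4 replicates 1 and 2, from raw counts of 179, 150, 36 and 35. Both HACY libraries were above both CCL4 libraries, and replicates lay close together. Hamp was 5.14-fold higher, a log2 fold change of 2.36 (SE 0.30, edgeR adjusted p = 0.00461).

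Hamp2 (chr7:30922372-30924681, minus strand), a copy not known to share the effect of hepcidin on plasma iron, also rose. It stood at 6.88 and 6.53 CPM in HACY and at 1.42 and 2.66 CPM in CCL4. Its change was 1.71 on the log2 scale (SE 0.38, edgeR adjusted p = 0.0323), a call that did not hold when either HACY library was left out (adjusted p = 0.125 without replicate 1 and 0.0893 without replicate 2). Counts of these copies are uncertain, since reads that match both could be split or lost. The identity of their transcripts was not computed. Hamp took 58.7% (95% Wilson interval 53.1 to 64.1) and 56.6% (50.6 to 62.4) of the counts of the pair in HACY, and 56.3% (44.1 to 67.7) and 39.3% (29.8 to 49.7) in CCL4. CCL4 replicate 2 was the library with the lowest share, and intervals cover counting error only. Summed over both copies, a setting added after seeing the data, the estimate was 2.05 (log2, SE 0.26, edgeR adjusted p = 0.00477). Both copies also lie inside an annotated antisense gene, Gm44662.

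Tfr2 (chr5:137569840-137587481), the second transferrin receptor, which senses loaded transferrin on hepatocytes, was not called. It stood at 49.0 and 74.6 CPM in HACY and at 51.7 and 45.4 CPM in CCL4. HACY replicate 2 was the highest library and HACY replicate 1 lay among the CCL4 libraries. The estimate was 0.35 (log2, SE 0.21, edgeR adjusted p = 0.316). Leaving out HACY replicate 1 gave 0.61, and leaving out HACY replicate 2 gave 0.01.

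Hfe (chr13:23702034-23710854, minus strand), the haemochromatosis protein that acts with Tfr2 upstream of Hamp, stood at 31.2 and 28.4 CPM in HACY and at 21.8 and 24.7 CPM in CCL4. Its groups did not overlap. Its estimate was 0.36 (log2, SE 0.17, edgeR adjusted p = 0.21), short of the threshold in all 14 other settings. Both sensors therefore had smaller point estimates than Hamp, and the difference between genes was not tested.

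Of the plasma iron proteins, Cp rose and Trf came near the threshold. Cp (chr3:19957054-20009145), the ferroxidase that loads iron onto transferrin, stood at 453.8 and 732.5 CPM in HACY and at 236.4 and 174.3 CPM in CCL4. HACY replicate 2 was the highest library. Cp was 2.89-fold higher (log2 fold change 1.53, SE 0.25, edgeR adjusted p = 0.012). It ranged from 1.14 to 1.83 over the 14 other settings, with a largest adjusted p of 0.0413. Cp overlaps Hps3 on the opposite strand over 13201 bases, and the strand setting of the counting is not given. Hps3 stood at 13.1 to 19.3 CPM in the 4 libraries, far below Cp.

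Trf (chr9:103204001-103230444, minus strand), the plasma iron carrier, stood at 2782 and 4048 CPM in HACY and at 2047 and 2300 CPM in CCL4. Trf overlaps Gm20425, annotated as protein-coding on the same strand, over 26307 bases, and the effect on its counts was not tested. The groups did not overlap, but the HACY libraries were further apart from each other than HACY replicate 1 was from the CCL4 libraries. Its estimate was 0.65 (log2, SE 0.19, edgeR adjusted p = 0.0682). DESeq2 (adjusted p = 0.0088), edgeR with no filter on low counts (0.0392) and edgeR with a replicate block (0.0331) called it higher. The edgeR estimate became 0.89 (adjusted p = 0.0144) with HACY replicate 1 left out and 0.36 (0.394) with HACY replicate 2 left out.

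Both genes tied to macrophage iron recycling rose. Slc11a1 (chr1:74375195-74386062), which encodes NRAMP1, a metal transporter of the macrophage phagosome, stood at 195.6 and 142.5 CPM in HACY and at 43.4 and 47.6 CPM in CCL4. Both HACY libraries lay far above both CCL4 libraries. Slc11a1 was 3.71-fold higher (log2 fold change 1.89, SE 0.18, edgeR adjusted p = 0.00188).

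Slc40a1 (chr1:45908068-45926523, minus strand), the target of hepcidin, stood at 167.4 and 158.3 CPM in HACY and at 89.8 and 89.9 CPM in CCL4. Replicates of either group lay closer together than the groups did. Slc40a1 was 1.81-fold higher (log2 fold change 0.86, SE 0.12, edgeR adjusted p = 0.00625). It ranged from 0.69 to 0.90 over the 14 other settings, with a largest adjusted p of 0.041. The mRNAs of hepcidin and of the exporter it has degraded were thus both higher in HACY. The libraries hold no protein measurement.

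None of the 3 genes for uptake and storage in most cells was called. Tfrc (chr16:32608920-32632794), the receptor for loaded transferrin, stood at 169.8 and 168.7 CPM in HACY and at 129.0 and 126.8 CPM in CCL4. The groups were apart and replicates almost equal, with a log2 fold change of 0.40 (SE 0.11, edgeR adjusted p = 0.0637). The smallest adjusted p of the other settings was 0.0501.

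Fth1 (chr19:9980598-9985098), the ferritin chain that oxidises iron, stood at 7460 and 7072 CPM in HACY and at 8861 and 8577 CPM in CCL4. Both HACY libraries were below both CCL4 libraries. Its estimate was -0.26 (log2, SE 0.12, edgeR adjusted p = 0.205). Scaled by library size alone, which moved the median of all genes to -0.18, Fth1 was at -0.43, or -0.25 relative to that median, and was called lower (adjusted p = 0.0457).

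Ftl1 (chr7:45457944-45459884, minus strand), the ferritin chain that helps form the iron core, stood at 4424 and 4057 CPM in HACY and at 4329 and 6259 CPM in CCL4. CCL4 replicate 2 was the highest library and the groups overlapped. The estimate was -0.32 (log2, SE 0.19, edgeR adjusted p = 0.294), and -0.03 with CCL4 replicate 2 left out. That library also held more neutrophil marker RNA, 273 CPM over 10 genes against 44.1 to 55.1 CPM in the other 3 libraries, and the part of these cells in the Ftl1 value was not tested. The annotation names 8 ferritin pseudogenes, some of them named for another gene, Fthl17, rather than for Fth1 or Ftl1. Ferritin counts may also be shared with the others. Ftl1 also overlaps Gm22133 on the same strand and Gm10252 on the opposite strand, over at most 416 bases.

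Ferritin (Fth1 and Ftl1 together) took 1.14% and 1.03% of all counts in HACY and 1.41% and 1.56% in CCL4. These are shares of the library total, without TMM factors. Ratios between these genes within a library, in contrast, do not depend on the scaling. Per 1000 ferritin counts there were 14.3 and 15.2 Tfrc counts in HACY and 9.78 and 8.55 in CCL4. Both HACY libraries thus had more receptor mRNA per ferritin mRNA, a ratio taken after the levels were seen. There were 1.69 and 1.74 Fth1 counts per Ftl1 count in HACY and 2.05 and 1.37 in CCL4, with the HACY libraries between the CCL4 ones.

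Markers of hepatocytes and of macrophages rose in the same libraries as the iron genes. Of 18 hepatocyte markers, 13 were called higher and 0 lower (median log2 fold change 1.47), with summed levels of 33068 and 41379 CPM in HACY and 11244 and 9702 CPM in CCL4. Albumin (Alb) made up most of that sum, at 24005 and 30358 CPM in HACY and 6971 and 5497 CPM in CCL4. Of 14 macrophage markers, 12 were called higher and 0 lower (median 1.54), with sums of 3861 and 2811 CPM against 1123 and 1614 CPM. Of 9 markers of Kupffer cells, the resident liver macrophages, 7 were called higher and 0 lower (median 1.61), with sums over 10 listed genes of 1212 and 861 CPM against 351 and 355 CPM. Of 10 markers of sinusoidal endothelium, the lining of liver capillaries, 3 were called higher and 1 lower by edgeR (median 0.91), 9 were higher and 1 lower at an unadjusted p under 0.05, and 8 were called by DESeq2. Their sums were 1622 and 1288 CPM in HACY and 556 and 941 CPM in CCL4, and the groups did not overlap for any of the 10. In bulk libraries fewer cells of a type and less RNA per cell cannot be told apart, and the part of cell mix in the iron genes' changes was not tested.

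Each iron gene was therefore also set against these markers within each library, as the log2 of its CPM over the geometric mean CPM of the marker list. An exact two-sided permutation test of 2 against 2 libraries cannot go below a p of 0.333, so these ratios are given as a description. Hamp per hepatocyte marker stood at -4.86 and -5.40 in HACY and at -6.00 and -6.09 in CCL4, a difference of 0.92 with a replicate SD of 0.28. Per albumin alone the groups overlapped, with a difference of 0.18.

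Against the mean of the hepatocyte marker list, the other genes of hepatocyte iron handling were not higher. The markers of that list ranged from -0.04 (Hnf4a) to 2.49 (Fga) in log2 fold change, so these ratios depend on the markers used. Cp per hepatocyte marker overlapped between groups, at 0.66 and 1.01 in HACY and 0.94 and 0.49 in CCL4. Per albumin alone, Cp was lower in both HACY libraries, with a difference of -0.62 (replicate SD 0.18). Trf, Tfr2 and Hfe per mean of the marker list were lower in both HACY libraries, with differences of -0.76 (replicate SD 0.12), -1.07 (0.16) and -1.03 (0.26). In plain counts, there were 11.6 and 13.3 Trf counts per 100 Alb counts in HACY and 29.4 and 41.8 in CCL4.

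Set against macrophage markers, the 2 macrophage genes differed in opposite directions. Slc11a1 stood at 0.08 and -0.03 in HACY and at -0.25 and -0.44 in CCL4, a difference of 0.37 with a replicate SD of 0.11. Slc40a1 stood at -0.14 and 0.13 in HACY and at 0.79 and 0.47 in CCL4, a difference of -0.64 with a replicate SD of 0.21. Against Csf1r alone, the receptor that macrophages need to survive, the differences were 0.26 (replicate SD 0.19) and -0.75 (0.25). There, Slc11a1 in HACY replicate 2 (0.702) was barely above CCL4 replicate 1 (0.700). Slc11a1 thus differed between groups by more than the macrophage markers did on average, and Slc40a1 by less, though hepatocytes and other cells also express Slc40a1. The macrophage markers ranged from 0.69 (Cd14) to 2.43 (Adgre1) in log2 fold change, a range that holds both genes, so these ratios also depend on the markers used. Against the hepatocyte marker list, Slc11a1 and Slc40a1 also differed in opposite directions, by 0.49 (replicate SD 0.41) and -0.53 (0.21). Tfrc, Fth1 and Ftl1 were lower in both HACY libraries against either marker list.

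**Figure D3:**
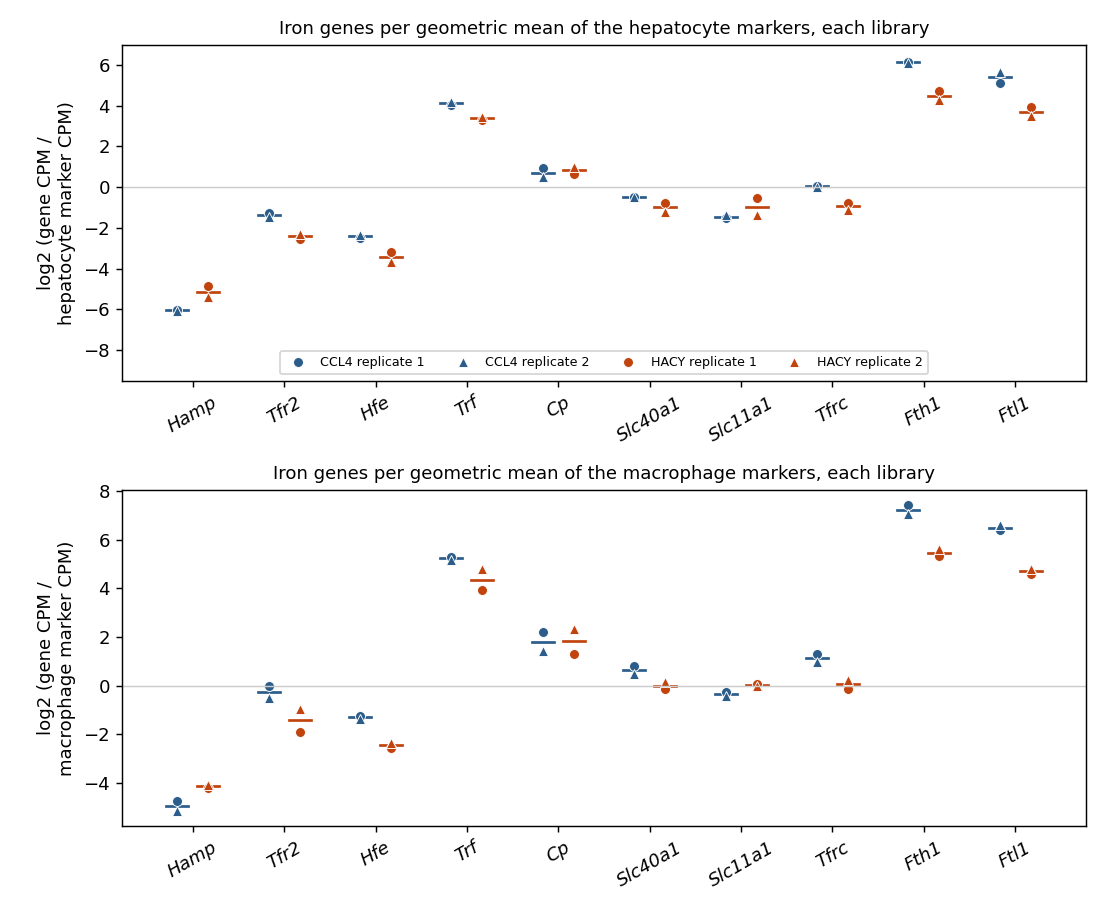
Log2 ratio of each iron gene's CPM to the geometric mean CPM of the hepatocyte markers (upper panel) and of the macrophage markers (lower panel), for CCL4 (blue) and HACY (orange) libraries, with circles for replicate 1, triangles for replicate 2 and bars for means. Hamp and Slc11a1 are higher in HACY in both panels. Trf, Tfr2, Hfe, Tfrc, Slc40a1 and both ferritin chains are lower in both.

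The listed BMP and SMAD genes, which control Hamp transcription, included no called gene in the main fit. Of 18 genes for BMP and SMAD control of hepcidin, 0 were called by edgeR and 0 by DESeq2, while 2 were higher and 2 lower at an unadjusted p under 0.05 (median -0.16). Smad9, a receptor-activated SMAD, stood at 1.53 and 2.61 CPM in HACY and 4.85 and 5.52 CPM in CCL4 (log2 fold change -1.32, SE 0.38, edgeR adjusted p = 0.0668). Neo1, a receptor that binds hemojuvelin, was at -0.41 (adjusted p = 0.0746), and Bmpr2, a type II BMP receptor, at 0.37 (0.0998). Scaling by library size alone called Smad9 and Neo1 lower, upper-quartile scaling called Neo1 lower (adjusted p = 0.0488), and no filter on low counts called Smad9 lower (0.0477). Leaving out CCL4 replicate 2 also called 2 genes of the list lower.

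Acute phase genes were listed as well, and the activity of STAT3 or of BMP signals was not tested. Of 14 acute phase genes, 7 were called higher and 0 lower (median 0.60). Apcs, serum amyloid P, stood at 41.1 and 37.9 CPM in HACY and 3.29 and 5.57 CPM in CCL4 (log2 fold change 3.15, SE 0.27, edgeR adjusted p = 0.00163). Orm1, orosomucoid, was at 1.30 (SE 0.16, adjusted p = 0.00386). Stat3 itself was at 0.38 (adjusted p = 0.0966). Estimates of 13 of the 14 genes were above 0, and that of Socs3 was below, at -0.25 (edgeR adjusted p = 0.51), with overlapping groups. With HACY replicate 2 left out 4 genes rose, with CCL4 replicate 2 left out 11 rose, and with CCL4 replicate 1 left out there was also 1 fall. Most acute phase proteins are made by hepatocytes, whose markers rose in the same libraries, and this list shares Hp, Hpx and Lcn2 with the lists below.

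Of 13 tested genes for other routes of iron import and for iron reduction, 3 were called higher and 0 lower (median 0.39). Lcn2, which binds bacterial iron carriers, stood at 787.3 and 1347 CPM in HACY and 435.4 and 570.4 CPM in CCL4 (log2 fold change 1.09, SE 0.26, edgeR adjusted p = 0.0396). Neutrophils also make Lcn2. The 10 neutrophil markers summed to 55.1 and 51.8 CPM in HACY and to 44.1 and 272.8 CPM in CCL4, so the HACY sums lay between the CCL4 ones. Of the 8 tested markers, 0 were higher and 4 lower at an unadjusted edgeR p under 0.05 (median -1.54). The part of these cells in the Lcn2 value was not tested. Steap1, of a family of metal reductases, was at 0.91 (adjusted p = 0.0434), and Slc39a14, a hepatocyte importer of iron not bound to transferrin, at 0.49 (0.0459). These calls were near the threshold: leaving out HACY replicate 1 kept a count of 1, leaving out HACY replicate 2 or CCL4 replicate 1 gave 0, and scaling by library size gave 1. None of these 3 genes passed under upper-quartile scaling (edgeR adjusted p from 0.0529 to 0.0674). Lcn2 and Slc39a14 were also lost in both fits on FPKM, Lcn2 with no filter on low counts (0.0644), and Slc39a14 with the replicate block (0.0646) or without CCL4 replicate 2 (0.0534).

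Of 14 genes that scavenge or break down haem and haemoglobin, 3 were called higher and 1 lower (median 0.27). Cd163, the macrophage receptor for haemoglobin bound to haptoglobin, stood at 14.3 and 17.3 CPM in HACY and 4.85 and 4.44 CPM in CCL4 (log2 fold change 1.76, SE 0.24, edgeR adjusted p = 0.00636). Hp, haptoglobin, was at 1.76 (SE 0.25, adjusted p = 0.00736), and Spic, a transcription factor of iron-recycling macrophages, at 1.73 (SE 0.30, adjusted p = 0.0138). These 3 calls held without any 1 library, and without CCL4 replicate 2 the list had 6 rises. Cd163 and Spic are also on the macrophage and Kupffer cell lists.

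Hmox1, the enzyme that opens the haem ring, was not called and stood at 1537 and 1134 CPM in HACY and 1543 and 1769 CPM in CCL4 (log2 fold change -0.31, SE 0.17, edgeR adjusted p = 0.267). The call lower was Mfsd7c (Flvcr2, a transporter of the haem exporter family) at -1.77 (adjusted p = 0.0233), and it was lost without either HACY library. Hmox1, Mfsd7c, Stat3 and Socs3 were named after their values were seen.

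Genes of iron use and of the iron regulatory proteins showed 1 call. None of 7 tested genes for iron regulatory proteins, iron chaperones and ferritin turnover was called by edgeR or DESeq2, with 1 higher and 1 lower at an unadjusted p under 0.05 (median 0.01). Pcbp2, an iron chaperone, was at 0.33 (edgeR adjusted p = 0.0981), Fbxl5, which has Ireb2 protein degraded, at -0.31 (0.146), and Ncoa4, which takes ferritin to lysosomes, at 0.24 (0.229). None of 8 haem synthesis genes was called by edgeR or DESeq2, with 0 higher and 1 lower at an unadjusted p under 0.05 (median -0.12). Alad was at -0.38 (edgeR adjusted p = 0.109), Cpox at -0.36 (0.202) and Ppox at -0.34 (0.245). Of 19 genes for iron-sulfur cluster assembly, 1 was called lower (median -0.02): Fam96b (Ciao2b, which delivers clusters to cytosolic and nuclear proteins), at -0.72 (SE 0.16, edgeR adjusted p = 0.033), lost without either HACY library. Nubp1, a cytosolic scaffold for such clusters, was at 0.50 (0.0992) and Cisd1, a mitochondrial cluster protein, at -0.52 (0.103). Scaling by library size alone called 1 regulatory, 1 synthesis and 3 assembly genes lower. Cpox and Cisd1 were called lower in both fits on FPKM, and Nubp1 was called higher without CCL4 replicate 2 (edgeR adjusted p = 0.0224).

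**Figure D4:**
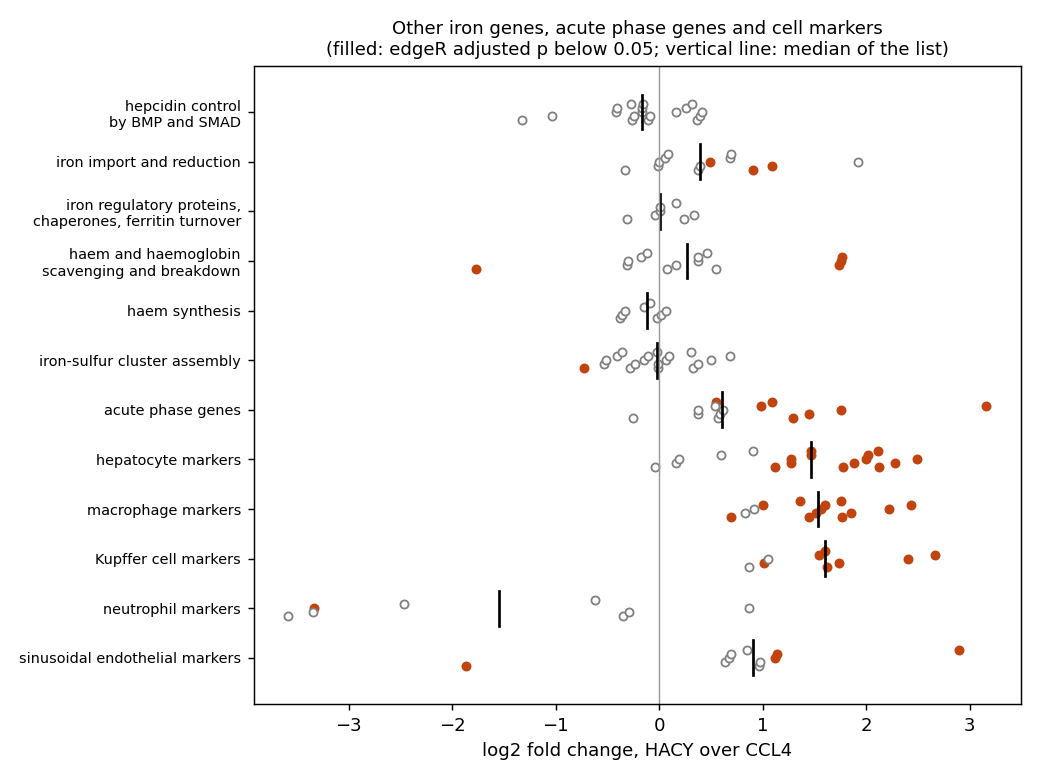
Log2 fold change (HACY over CCL4) of each tested gene in the lists of other iron genes, acute phase genes and cell markers; filled points had an edgeR adjusted p below 0.05 and vertical lines are list medians. The lists for BMP and SMAD control, haem synthesis and iron-sulfur clusters lie around 0 (medians -0.16, -0.12 and -0.02), and the hepatocyte, macrophage and Kupffer cell lists lie to the right (medians 1.47, 1.54 and 1.61).

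Library totals were 18467299 to 19314219 counts, and a count of 0 allows up to 0.155 to 0.162 CPM by counting error. The sort marker Cd24a stood at 21.9 and 19.4 CPM in HACY and 20.7 and 38.0 CPM in CCL4. Red cell precursors also carry CD24 and much Tfrc. Their 11 marker genes in the tables summed to 5.63 and 10.6 CPM in HACY and 2.63 and 3.89 CPM in CCL4, higher in both HACY libraries, and 5 of the 11 had at most 1 count in each library. The 2 that passed the filter, Hbb-bs and Alas2, were at 1.36 and 1.34 on the log2 scale (edgeR adjusted p = 0.141 and 0.233). The part of these cells in the Tfrc value was not tested. Of 7 B cell markers 1 was called higher and 0 lower, of 9 biliary and progenitor markers 0 higher and 1 lower, and of 8 neutrophil markers 0 higher and 1 lower. Of 9 stellate cell markers 0 were called by edgeR, with 1 higher and 0 lower at an unadjusted p under 0.05 and 1 called by DESeq2.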

How the data were processed

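Stranded mRNA libraries for paired-end reads were prepared from total RNA of the sorted cells, per the labels' protocols. The deposited count columns hold raw reads per gene symbol, per the file headers, and the FPKM columns were scaled by the authors to transcript length and library size, per the file headers. Trimmomatic, HISAT2, Cufflinks, HTSeq, DESeq and the build mm10 are named per the submitters' processing notes, without roles. Which annotation and strand option the counting used is not given in the sources used here.

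Genes kept by filterByExpr (minimum count 10, minimum total 15) were scaled by TMM and tested with edgeR 4.0.16 (R 4.3.3, robust quasi-likelihood fit, treatment as the only term, two-sided, Benjamini-Hochberg over 13428 genes, threshold 0.05). CPM are TMM-scaled, and an SE is the log2 fold change over the square root of F. Replicates differed by a chi-square of 19.0 (HACY) and 34.0 (CCL4) per degree of freedom, so no library copies another. The scripts were tested on counts simulated with these library sizes and the common dispersion. There the main fit called 18% of 1.5-fold changes, 76% of 2-fold changes and 96% of 4-fold changes. A gene that was not called may therefore still differ between groups. Other settings were scaling by RLE, by upper quartiles or by library size, DESeq2 1.42.0, limma 3.58.1 (voom, and log2(FPKM + 1) or log2(FPKM + 0.1) for genes with a mean of at least 1 FPKM), no filter, at least 50 counts in 2 libraries, a replicate block and each library left out. Summing Hamp and Hamp2, and the other settings of the named list genes, were added after seeing the data. Ratios to markers had 0.1 added to each CPM.

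The 10 genes, the lists and the naming rule (all 10 genes, and up to 3 genes of smallest p per other iron list) were chosen with earlier results of these data known. List genes were matched by symbol or older symbol (Hfe2, Fam132b, Mfsd7b, Mfsd7c, Fam96b); Ahsp was not matched. Sequences and locations come from GENCODE M21 (GRCm38) and RefSeq (GRCm38.p6).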

Additional observations from a re-analysis of the deposited data

How the results depend on the processing

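The 4 iron genes called higher (Hamp, Slc40a1, Slc11a1 and Cp) were called higher in all 14 other settings, and none of the 10 iron genes changed direction in any of them. Scaled by library size alone, 1 iron gene (Fth1) was called lower. The counts over all genes moved more than those of the iron genes: 1100 higher and 476 lower became 856 and 1355 by library size, 1350 and 730 by DESeq2, 640 and 623 by limma on log2(FPKM + 1), and 646 and 642 on log2(FPKM + 0.1). Upper-quartile scaling gave 925 higher and 614 lower. Leaving out 1 library gave 530 to 1840 higher and 99 to 1207 lower, with the fewest without HACY replicate 1 and the most without CCL4 replicate 2, where the lone library of a group is taken to vary like the other group. The cause of these shifts was not tested. With the replicate block, 893 genes were called higher and 331 lower, and 5 iron genes were higher (Trf added). Libraries share only a number: deviations of same-numbered libraries correlated at -0.0989 across genes. The biological coefficient of variation was 16.5%, and Hamp, with 35 to 179 counts a library, is the iron gene that depth limits most.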
